A study of Homo sapiens with 26 samples.

Results

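In ZR751 breast tumors grown in mice, 80 genes were low after 3 days of the CDK4 inhibitor atirmociclib and back near the vehicle level after 84 to 91 days on the drug. They were chosen by their measured levels, so their levels are given here as a description and carry no test. For each mouse, log2(TPM + 1) was averaged over its 2 libraries, where TPM is a gene's share of the transcripts scaled to a fixed total. A gene qualified when its vehicle mean was at least 5 TPM, its resistant mean lay within 0.5 log2 units of the vehicle mean, and every sensitive mouse was below every resistant and every vehicle mouse. Of 30331 named genes, 389 met these conditions. The 80 were those with the largest rule value, which is the smaller of the fall at 3 days and the difference of resistant from sensitive tumors.

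The groups were 5 resistant tumors, 3 sensitive tumors and 5 vehicle tumors, all from ZR751, an established estrogen receptor positive luminal breast cancer line, placed under the skin of female NSG mice, which lack T, B and NK cells. Resistant tumors had received atirmociclib (PF-07220060) by mouth for 84 to 91 days at 60 mg/kg, 2 times a day with 7 hours between doses, and sensitive tumors had received the same dose for 3 days. Vehicle tumors had received vehicle for 3 days, and their treatment label reads DMSO. Dosing began at a tumor volume of 150 mm3, and tumors were taken 3 hours after the last dose. The resistant mice belonged to a separate study with no vehicle mice of its own here, so the length of treatment, the study and resistance are confounded and cannot be told apart. Whole tumors were ground, so fewer cells expressing a gene and less RNA of it per cell cannot be told apart either.

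CDK4 with a D-type cyclin phosphorylates the retinoblastoma protein RB, which then releases E2F transcription factors and lets cells enter S phase. E2F factors switch on genes of nucleotide supply, replication and repair. A second layer, the MuvB core, forms the repressive DREAM complex in resting cells and joins B-Myb and FOXM1 in cycling cells, and it binds the CHR element in promoters of genes used in G2 and mitosis. In luminal breast cancer, CDK4 inhibitors hold RB in its active state and stop cells in G1.

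The 80 genes came from many functions. By known function, 11 act in replication and S-phase entry, 11 in repair and genome maintenance, 8 at kinetochores or in mitosis, 6 in chromatin, the lamina or nuclear RNA, 6 in centrioles, cilia or the flagellum, 12 in the matrix, membrane or cytoskeleton, 11 in antigen presentation, immune or death signaling and 6 are enzymes, with 9 others. This grouping was made after the members were known. On gene lists that do not use it, 5 of 36 DNA replication genes, 3 of 25 E2F and DREAM targets of G1/S, 1 of 26 DNA repair genes and 1 of 37 G2/M genes were among the 80. Beside these counts, the pool was 80 of 10647 genes at 5 TPM or more in vehicle tumors. No list is therefore read as short of members. Sensitive tumors lay 0.50 to 2.71 log2 units below vehicle tumors (median difference -0.90), and resistant tumors 0.50 to 2.42 above sensitive tumors (median 0.77). Resistant minus vehicle ran between -0.49 and 0.37 with a median of -0.13, and the resistant mean was below the vehicle mean for 55 of the 80 and above it for 25. The share of the 3-day fall that was regained ran between 54.4% and 153%, with a median of 88.2%. These member differences are as measured, with no shift removed. Over all 14079 genes tested, the median of resistant minus vehicle was -0.14. The rule kept every member near its vehicle mean, so nothing is read from the member median lying near that of all genes.

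The selection left out most genes that fell strongly. Of 10647 genes at 5 TPM or more in vehicle tumors, 2024 had every sensitive mouse below every vehicle mouse, and 526 of these also had every sensitive mouse below every resistant mouse. Resistant tumors were 0.5 or more below vehicle for 127 of the 526 and 0.5 or more above for 10. A fall of at least 1 log2 unit with sensitive and vehicle mice apart was seen for 308 genes, of which 255 were 0.5 or more below vehicle in resistant tumors, 51 within 0.5 of vehicle and 2 at 0.5 or more above. Of the 51, 29 are members, and in the other 22 at least 1 resistant mouse was not above every sensitive mouse.

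Across all 14079 genes tested with limma, 12.6% were called lower in sensitive than in vehicle tumors, and 74 of the 80 were among them. In resistant against sensitive tumors 9.56% were called higher, with 79 of the 80 among them. In resistant against vehicle tumors 11.5% were called higher and 32.5% lower, with 1 and 11 of the 80 among them. This split rested on the scaling. Median of ratios gave 2540 genes higher and 2439 lower, with 7 and 1 of the 80 among them. Quantile normalization gave 2330 higher and 2775 lower, also with 7 and 1 of the 80. The rule used all 3 contrasts, so nothing is read from these member counts. Each pair of contrasts shares a group of mice, so their values are not independent.

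The genes at the edge of the selection differed little. The last 5 taken were PPP1R10, UST, NFATC1, LIN9 and SLC35E4, with rule values of 0.51, 0.51, 0.51, 0.50 and 0.50. The next 5, not taken, were CCND3, IGFBP2, KIF22, SFXN5 and POF1B, with 0.49, 0.49, 0.48, 0.48 and 0.47. CCND3, the gene of cyclin D3, a partner of CDK4, was thus the first gene left out.

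The 2 regulatory layers, E2F and MuvB, read different promoter letters, so member promoters were searched for both. RefSeq promoters (GRCh38.p14, 250 bases before to 50 after the start) were found for 65 of the 80. Matches were counted on both strands for E2F letters (TTTGGCGC, TTTCCCGC, TTTGCCGC or TTTCGCGC), CHR letters (TTTGAA or TTCGAA) and CCAAT; matches of different motifs could share end letters, and no member promoter held both E2F and CHR letters. Stretches of 60 bases from 5 member promoters are shown 5′ to 3′ on the gene's strand, with the matched E2F or CHR letters in capitals and any CCAAT left in lower case: the first 2 hold E2F letters and the last 3 hold CHR letters.
E2F1: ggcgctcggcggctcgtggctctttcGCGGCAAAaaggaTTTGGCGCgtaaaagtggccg
LIG1: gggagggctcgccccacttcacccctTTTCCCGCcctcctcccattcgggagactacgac
CKS1B: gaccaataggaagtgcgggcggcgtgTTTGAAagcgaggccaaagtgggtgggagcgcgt
C19orf40: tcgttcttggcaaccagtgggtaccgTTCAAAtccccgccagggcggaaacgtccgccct
HMGB3: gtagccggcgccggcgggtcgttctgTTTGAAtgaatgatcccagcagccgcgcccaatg
In GRCh38.p14 they lie at chr20:33686385-33686444 on the minus strand, chr19:48170425-48170484 on the minus strand, chr1:154974625-154974684 on the plus strand, chr19:32972070-32972129 on the plus strand and chrX:150983137-150983196 on the plus strand.

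The E2F1 promoter was the only member promoter with 2 E2F matches, 1 on each strand, and E2F1 encodes the factor that reads such letters. The first of them begins 33 bases before the start, and the CKS1B match begins 30 bases before its start. The LIG1, C19orf40 and HMGB3 matches begin farther out, 114, 146 and 172 bases before the start. Those of C19orf40 and HMGB3 thus lie outside the shorter CHR window used below. E2F letters were in 5 of the 65 member promoters (7.69%), those of E2F1, FANCD2, YBX2, LIG1 and LMNA, against 5.81% of 8470 promoters of genes at 5 TPM or more in vehicle tumors and 3.33% of all 27305. CHR letters were in 9 of 65 (13.8%), those of LOC81691, TRIP13, LURAP1L, TRAIP, LOC100506100, C19orf40, HMGB3, CKS1B and WDR34, against 10.4% of the expressed genes and 16.6% of all. CCAAT was in 28 of 65 (43.1%), against 37.4% and 35.7%. An estrogen response element was in 0 of the 65 and in 18 of all promoters (0.07%).

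The G2/M genes that stayed outside the 80 looked different in the same window. Of 29 such promoters, 69.0% held CHR letters and 79.3% CCAAT, with E2F letters in 10.3%. Among 203 promoters of genes that fell by at least 1 and were still 0.5 or more below vehicle in resistant tumors, 45.8% held CHR letters, against 17.1% of 41 promoters of genes that fell by at least 1 and were within 0.5 of vehicle. E2F letters were in 16.7% of the 203 and 26.8% of the 41. The 23 of these 41 that belong to members held E2F letters in 3 and CHR letters in 6 (26.1%), so the higher E2F share of the 41 was not seen in its member promoters. These sets were defined by expression and the shares are a description with no test; a match is not a bound site, and a missing match says only that these letters are not in the window. With other settings, chosen after seeing the data, the shares moved. When the first T of the E2F letters was dropped, the shares were 32.3% in the 65 member promoters, 43.9% in the 41, 36.5% in the 203 and 21.9% in the expressed genes. With CHR counted over 100 bases before to 50 after the start, they were 9.23% in the members, 14.6% in the 41, 35.5% in the 203 and 4.00% in the expressed genes.

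**Figure D1:**
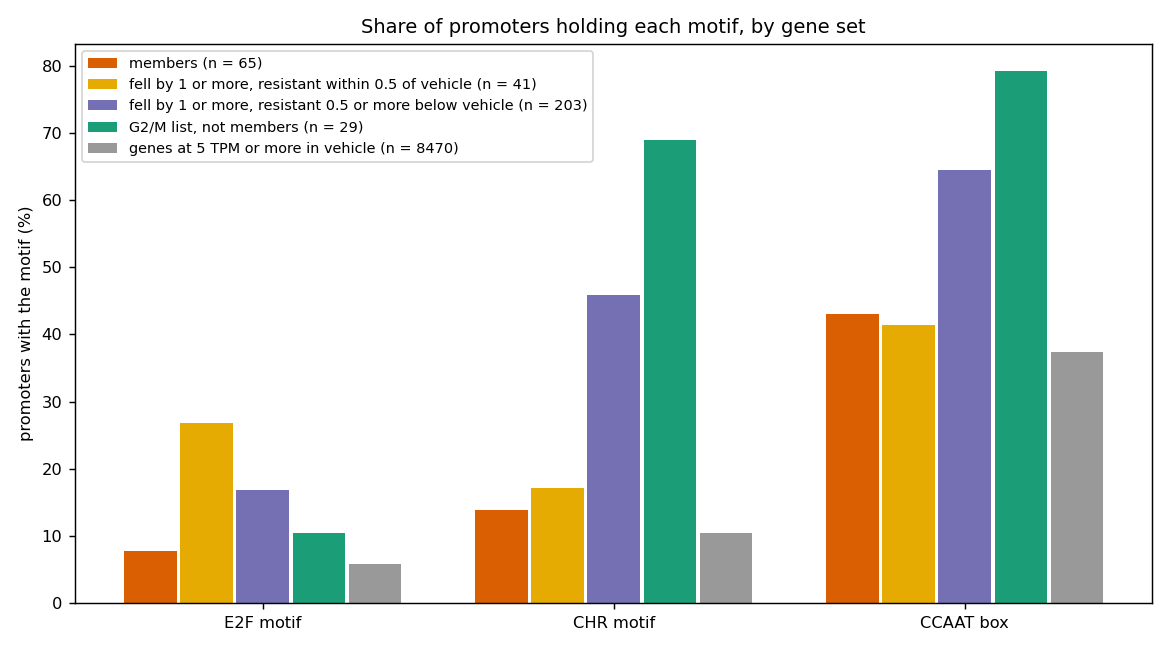
Share of promoters (%, y axis) with at least 1 E2F, CHR or CCAAT match (x axis), with 1 bar color per gene set and the number of promoters in the legend. CHR letters reach 69.0% in the G2/M genes outside the 80 and 13.8% in the members.

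Values per mouse follow in the order 9-3, 9-6, 9-7, 9-8 and 9-9 for resistant, 6-4, 6-5 and 6-6 for sensitive and 1-2, 1-4, 1-5, 1-6 and 1-9 for vehicle tumors. Each is the mean of 2 libraries, and SDs are over mice (n = 5, 3 and 5). Gene positions are from GENCODE 29 on GRCh38.

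MYBL2 (chromosome 20, 43667019 to 43716496, plus strand), which encodes B-Myb, the factor that joins MuvB to activate late cell cycle genes, had the largest rule value. It had 213, 179.7, 138, 90.9 and 155 TPM in resistant tumors, 25.4, 20.8 and 37.9 TPM in sensitive tumors and 184, 176, 162, 236 and 169 TPM in vehicle tumors. The lowest resistant mouse, 9-8, was 1.24 log2 units above the highest sensitive mouse. On the log2 scale the differences were resistant minus sensitive 2.42, sensitive minus vehicle -2.71 and resistant minus vehicle -0.30, so 89.1% of the fall was regained.

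TK1 (chromosome 17, 78174075 to 78187233, minus strand), the thymidine kinase of the salvage pathway, had 80.9, 77.8, 103, 32.4 and 49.6 TPM in resistant tumors, 21.1, 9.65 and 19.9 TPM in sensitive tumors and 91.1, 78.8, 87.8, 99.9 and 76.5 TPM in vehicle tumors. Mice 9-8 and 9-9 stood below the other resistant mice, yet above all sensitive mice. E2F1 (chromosome 20, 33675683 to 33686404, minus strand) had 57.1, 70.9, 85.2, 28.6 and 41.2 TPM in resistant tumors, 24.7, 8.45 and 21.6 TPM in sensitive tumors and 60.8, 42.9, 63.2, 58.3 and 39.8 TPM in vehicle tumors. Here 9-8 was close to sensitive mouse 6-4, while 9-6 and 9-7 were above every vehicle mouse. CDC45 (chromosome 22, 19479459 to 19520612, plus strand), part of the replicative helicase, had 40.4, 38.04, 39.9, 13.9 and 28.1 TPM in resistant tumors, 13.1, 4.74 and 12.5 TPM in sensitive tumors and 36.2, 26.1, 27.5, 38.9 and 26.2 TPM in vehicle tumors. Mouse 9-8 and mouse 6-4 almost met for CDC45, with a gap of 0.09 log2 units, and the other 4 resistant mice lay at vehicle levels or above.

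Further replication genes made smaller moves. GINS4, a subunit of the GINS part of the helicase, averaged 12.7 ± 3.12 TPM in resistant tumors, 4.55 ± 0.724 TPM in sensitive tumors and 9.40 ± 0.989 TPM in vehicle tumors, and its resistant mean exceeded vehicle the most of the 80 (resistant minus vehicle 0.37). LIG1, the ligase that joins Okazaki fragments, averaged 38.9 ± 6.89 TPM in resistant tumors, 18.8 ± 1.75 TPM in sensitive tumors and 32.6 ± 2.14 TPM in vehicle tumors. The other single-strand binding and clamp loading members, RPA3 and RFC4, regained 75.1% and 63.6% of the fall. A pair of regulators of the G1 to S step regained less. CDK2, the kinase that takes over from CDK4, had 28.000, 29.6, 28.4, 21.02 and 26.8 TPM in resistant tumors, 20.2, 15.3 and 19.2 TPM in sensitive tumors and 34.2, 32.6, 35.3, 36.8 and 33.2 TPM in vehicle tumors. CKS1B, a small subunit that binds CDK2 and helps remove p27, had 228, 222, 226, 156 and 197 TPM in resistant tumors, 149, 108 and 124 TPM in sensitive tumors and 296, 262, 231, 353 and 265 TPM in vehicle tumors. For both genes the resistant tumors stood between the other groups, with every resistant mouse below every vehicle mouse. LIN9, a subunit of the MuvB core itself, averaged 8.001 ± 1.75 TPM in resistant tumors, 5.25 ± 0.227 TPM in sensitive tumors and 9.77 ± 1.46 TPM in vehicle tumors.

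Repair genes had a median of -1.05 for sensitive minus vehicle, close to -1.02 for the kinetochore group. Their median for resistant minus vehicle was -0.08. FANCD2 (chromosome 3, 10026414 to 10101930, plus strand), the central protein of the Fanconi anemia pathway, had 16.3, 13.7, 13.4, 6.87 and 11.1 TPM in resistant tumors, 5.64, 4.49 and 5.29 TPM in sensitive tumors and 13.3, 12.01, 13.7, 14.6 and 13.1 TPM in vehicle tumors. C11orf82 (now DDIAS), named for suppressing apoptosis after DNA damage, had 6.13, 6.38, 7.56, 3.17 and 5.47 TPM in resistant tumors, 1.82, 1.07 and 2.12 TPM in sensitive tumors and 7.31, 5.44, 5.54, 7.49 and 5.89 TPM in vehicle tumors. EME1, a partner of the MUS81 endonuclease, had 17.03, 21.03, 20.97, 12.5 and 16.9 TPM in resistant tumors, 7.22, 4.98 and 9.15 TPM in sensitive tumors and 17.5, 15.7, 16.4, 15.9 and 14.2 TPM in vehicle tumors. Mice 9-6 and 9-7 were above every vehicle mouse for EME1, and of the resistant mice only 9-8 was below the vehicle range. AUNIP, which takes part in DNA end resection, had 5.71, 5.34, 8.21, 3.005 and 4.96 TPM in resistant tumors, 2.13, 1.92 and 2.52 TPM in sensitive tumors and 6.92, 4.86, 4.21, 8.03 and 4.64 TPM in vehicle tumors. RECQL4, a helicase, averaged 39.2 ± 5.87 TPM in resistant tumors, 19.8 ± 3.61 TPM in sensitive tumors and 42.8 ± 1.86 TPM in vehicle tumors, and TRAIP, a ubiquitin ligase at stalled forks, averaged 8.29 ± 2.10 TPM in resistant tumors, 3.89 ± 0.945 TPM in sensitive tumors and 11.2 ± 1.52 TPM in vehicle tumors.

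NUDT1 (chromosome 7, 2242222 to 2251146, plus strand), which removes oxidized nucleotides, showed the pattern with very little spread. It had 74.1, 75.3, 78.4, 75.4 and 79.95 TPM in resistant tumors, 48.8, 46.02 and 47.4 TPM in sensitive tumors and 77.1, 80.4, 80.3, 76.1 and 76.9 TPM in vehicle tumors. The resistant and vehicle ranges nearly coincide, and the sensitive mice lie well below both. CHEK2, a checkpoint kinase, regained 86.8%, and RAD18, a ubiquitin ligase of damage tolerance, 112%. TREX1, an exonuclease that clears DNA from the cytosol, averaged 23.5 ± 4.34 TPM in resistant tumors, 11.1 ± 2.77 TPM in sensitive tumors and 18.3 ± 2.94 TPM in vehicle tumors; it overlaps ATRIP, and reads of the pair may have been divided between them.

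The kinetochore members belong to the inner kinetochore, the MIS12 complex and the checkpoint. CENPK, a subunit of the constitutive centromere network, had 16.1, 9.21, 12.3, 6.29 and 10.6 TPM in resistant tumors, 5.50, 2.15 and 3.33 TPM in sensitive tumors and 17.8, 13.7, 10.98, 14.8 and 14.9 TPM in vehicle tumors. Its partner CENPH had 33.95, 33.7, 33.5, 21.2 and 28.6 TPM in resistant tumors, 16.4, 11.3 and 16.2 TPM in sensitive tumors and 34.9, 28.05, 28.6, 36.7 and 33.6 TPM in vehicle tumors. DSN1, of the MIS12 complex, averaged 22.2 ± 5.24 TPM in resistant tumors, 12.6 ± 3.04 TPM in sensitive tumors and 31.1 ± 3.37 TPM in vehicle tumors and was the member with the lowest resistant mean relative to vehicle (-0.49). TRIP13, an ATPase that recycles spindle checkpoint proteins, had 25.02, 21.3, 28.2, 11.8 and 18.1 TPM in resistant tumors, 10.3, 6.37 and 9.55 TPM in sensitive tumors and 26.2, 22.3, 18.8, 30.4 and 22.9 TPM in vehicle tumors. HAUS1, of the augmin complex, ZWILCH, of the RZZ complex, and VRK1, a chromatin kinase, regained 83.2%, 76.5% and 152%. REEP4, which clears membrane from mitotic chromosomes, averaged 35.4 ± 4.11 TPM in resistant tumors, 23.995 ± 2.86 TPM in sensitive tumors and 45.7 ± 2.02 TPM in vehicle tumors.

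Chromatin members were few. SUV39H1, a histone H3 lysine 9 methyltransferase, had 15.9, 16.3, 15.4, 10.8 and 14.7 TPM in resistant tumors, 9.37, 8.60 and 9.29 TPM in sensitive tumors and 16.7, 18.5, 19.6, 19.7 and 17.04 TPM in vehicle tumors, and HMGB3, a chromatin protein of the HMG box family, had 37.3, 55.7, 38.9, 35.4 and 40.4 TPM in resistant tumors, 25.4, 22.4 and 24.8 TPM in sensitive tumors and 49.8, 39.4, 50.2, 52.5 and 45.1 TPM in vehicle tumors. LMNA (chromosome 1, 156082573 to 156140089, plus strand), the gene of lamins A and C, had 306, 267, 334, 473 and 268 TPM in resistant tumors, 196, 183 and 239.6 TPM in sensitive tumors and 296, 288, 338, 306 and 283 TPM in vehicle tumors. Mouse 9-8 was the highest of all 13 for LMNA, although it was the lowest resistant mouse for most members. LOC81691 (REXO5 by gene ID), an RNA exonuclease gene, had 12.5, 18.7, 16.6, 10.1 and 13.5 TPM in resistant tumors, 6.67, 4.70 and 5.62 TPM in sensitive tumors and 15.4, 12.1, 20.98, 18.4 and 15.2 TPM in vehicle tumors. TOE1 and PPP1R10, which act on nuclear RNA and in transcription termination, regained 71.8% and 92.2%.

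Of the centriole and cilium genes, POC1A, a centriole protein, had 12.9, 15.1, 16.2, 9.82 and 12.3 TPM in resistant tumors, 7.33, 3.09 and 5.72 TPM in sensitive tumors and 19.9, 16.3, 12.4, 20.3 and 15.8 TPM in vehicle tumors. ZMYND10, needed to assemble dynein arms of motile cilia, had 8.82, 9.56, 8.45, 5.69 and 7.54 TPM in resistant tumors, 3.17, 2.33 and 4.03 TPM in sensitive tumors and 7.73, 5.88, 7.07, 7.66 and 5.45 TPM in vehicle tumors. WDR34 (DYNC2I2), a subunit of the dynein that moves cargo in cilia, averaged 141 ± 12.4 TPM in resistant tumors, 96.04 ± 12.7 TPM in sensitive tumors and 194 ± 12.2 TPM in vehicle tumors, and every resistant mouse was below every vehicle mouse. CABYR and SPA17, known from the sperm flagellum, regained 95.96% and 70.8%, and C14orf80 (TEDC1), of a complex with delta and epsilon tubulin, 59.8%.

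Of the 4 largest rule values, 2 belonged to genes of proteins found outside the cell. FBLN1 (chromosome 22, 45502238 to 45601135, plus strand), which encodes the matrix protein fibulin-1, had 29.2, 36.8, 49.3, 25.9 and 30.1 TPM in resistant tumors, 8.49, 8.11 and 10.1 TPM in sensitive tumors and 46.8, 36.4, 27.8, 47.8 and 31.7 TPM in vehicle tumors. The gap between the highest sensitive mouse and the lowest mouse of the other groups, 1.27 log2 units, was the widest of the 80. LGALS1 (chromosome 22, 37675608 to 37679806, plus strand), the gene of galectin-1, a sugar-binding protein, had 113, 116, 119, 88.6 and 114 TPM in resistant tumors, 17.6, 35.1 and 58.9 TPM in sensitive tumors and 207, 135, 87.9, 155 and 136 TPM in vehicle tumors. Sensitive mouse 6-4 was lowest for LGALS1, not 6-5, and the vehicle mice spread more than the resistant ones.

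S100A10, the partner of annexin A2 at the plasma membrane, had 309, 199.5, 267, 201 and 171 TPM in resistant tumors, 70.1, 119 and 143 TPM in sensitive tumors and 203, 183, 335, 169 and 210.4 TPM in vehicle tumors. CTNNAL1, an alpha-catenin relative, averaged 12.2 ± 3.20 TPM in resistant tumors, 5.53 ± 1.595 TPM in sensitive tumors and 12.4 ± 3.92 TPM in vehicle tumors. LURAP1L, a relative of an adaptor of actin regulation, had 8.40, 9.95, 9.57, 7.43 and 7.37 TPM in resistant tumors, 4.36, 2.83 and 3.79 TPM in sensitive tumors and 7.57, 7.68, 12.7, 5.73 and 9.78 TPM in vehicle tumors. The resistant and vehicle ranges overlapped for all 3. The other membrane and cytoskeleton members were APLP1, KCNK1, TSPAN5, ARHGAP29, ZNF185, KANK2 and FHDC1, with sensitive minus vehicle between -1.17 (APLP1) and -0.56 (FHDC1). FHDC1, a formin, rested on narrow margins: its resistant mice had 4.02 to 11.1 TPM and its sensitive mice 3.54 to 3.93 TPM.

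Fibroblast marker genes were scarce in these human-mapped values, with 4.44 to 10.1 TPM summed over 5 genes in resistant, 5.76 to 8.26 in sensitive and 7.71 to 13.1 in vehicle tumors, and only COL1A1 reached 1 TPM in any mouse. Leukocyte markers summed to 5.62 to 14.8 TPM in resistant, 2.76 to 6.09 in sensitive and 1.86 to 4.45 in vehicle tumors, with CD68 and LYZ the 2 of 4 that reached 1 TPM and 1 of the 4 at 0 in every mouse. Endothelial markers summed to at most 0.645 TPM, and none of the 3 reached 1 TPM. Basal markers summed to 0.435 to 1.26 TPM in resistant, 5.73 to 16.4 in sensitive and 1.35 to 8.74 in vehicle tumors, and 1 of 3 reached 1 TPM. Luminal markers were all present, 10 of 10, and summed to 26873 to 31886 TPM in resistant, 14597 to 17945 in sensitive and 11524 to 18442 in vehicle tumors. TFF1 alone averaged 12018 TPM in resistant, 3078 TPM in sensitive and 988 TPM in vehicle tumors. With TFF1, the means of KRT8, KRT18, KRT19 and XBP1 were higher in resistant than in vehicle tumors. Those of EPCAM, GATA3, FOXA1, ESR1 and CDH1 were lower. The part of other cells in the member values was not tested.

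Among immune and death genes, B2M (chromosome 15, 44711487 to 44718877, plus strand), the light chain of MHC class I, had 371, 383, 502, 384 and 353 TPM in resistant tumors, 201, 182 and 214 TPM in sensitive tumors and 356, 275, 288, 339 and 308 TPM in vehicle tumors. Mice 9-3, 9-6, 9-7 and 9-8 were above every vehicle mouse for B2M. PSMB8, an immunoproteasome subunit, had 34.3, 36.98, 37.1, 34.2 and 39.5 TPM in resistant tumors, 26.3, 19.7 and 24.5 TPM in sensitive tumors and 33.3, 34.5, 34.6, 33.7 and 33.4 TPM in vehicle tumors. TNFRSF12A, the receptor of TWEAK, had 105, 53.6, 100.1, 130.4 and 60.4 TPM in resistant tumors, 38.3, 37.1 and 46.4 TPM in sensitive tumors and 85.7, 51.3, 69.2, 80.5 and 54.4 TPM in vehicle tumors, with 9-8 the highest of all mice. IGFLR1, a receptor of the TNF receptor family, had 20.4, 17.97, 22.1, 15.9 and 18.3 TPM in resistant tumors, 10.4, 6.71 and 9.42 TPM in sensitive tumors and 17.7, 16.7, 21.6, 20.9 and 16.1 TPM in vehicle tumors. TIFA, an adaptor that leads to NF-kB, had 6.31, 8.18, 8.74, 4.37 and 7.58 TPM in resistant tumors, 3.31, 2.72 and 2.06 TPM in sensitive tumors and 6.49, 6.13, 4.41, 7.42 and 5.38 TPM in vehicle tumors. NFKBIB, an NF-kB inhibitor, averaged 34.3 ± 2.45 TPM in resistant tumors, 22.1 ± 0.428 TPM in sensitive tumors and 32.6 ± 3.89 TPM in vehicle tumors.

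PLSCR1, BCL2L12, SYK and NFATC1, also in this group, regained 117%, 95.7%, 77.01% and 74.8% of the fall. The group's median for resistant minus vehicle was 0.08, against -0.27 for the replication group. Relative to vehicle means, the replication group averaged 0.03, 0.07 and 0.10 in mice 9-3, 9-6 and 9-7. It averaged -0.75 in 9-8 and -0.25 in 9-9. The immune group averaged 0.07, -0.02, 0.23, -0.06 and 0.04 in the same order of mice. Among enzymes, PPT1, a lysosomal thioesterase, averaged 382 ± 56.8 TPM in resistant tumors, 220.0 ± 40.3 TPM in sensitive tumors and 355 ± 75.9 TPM in vehicle tumors. CBR3, a carbonyl reductase, had 6.19, 9.06, 9.79, 3.94 and 2.93 TPM in resistant tumors, 2.54, 2.62 and 2.71 TPM in sensitive tumors and 7.33, 7.68, 5.71, 8.36 and 6.17 TPM in vehicle tumors, so that resistant mouse 9-9 was only just above the sensitive mice. GYG2, HGD, ST3GAL4 and UST regained 92.7%, 75.8%, 132% and 108%. DLX3, a homeobox gene, had 4.12, 5.15, 4.87, 4.53 and 4.57 TPM in resistant tumors, 1.79, 2.04 and 1.78 TPM in sensitive tumors and 4.43, 3.995, 13.4, 3.90 and 5.43 TPM in vehicle tumors, and vehicle mouse 1-5 stood above all others. The remaining members included YBX2, a Y-box nucleic acid binding protein, C16orf45 (BMERB1), LOC100506100 (ZDHHC12-DT by gene ID), the pseudogene RP9P, EFCAB11, CARHSP1, RPS27L and SLC35E4. With DLX3, their sensitive minus vehicle ran between -1.20 (DLX3) and -0.50 (SLC35E4). RP9P and RPS27L have close copies, and their counts may be divided with them.

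**Figure D2:**
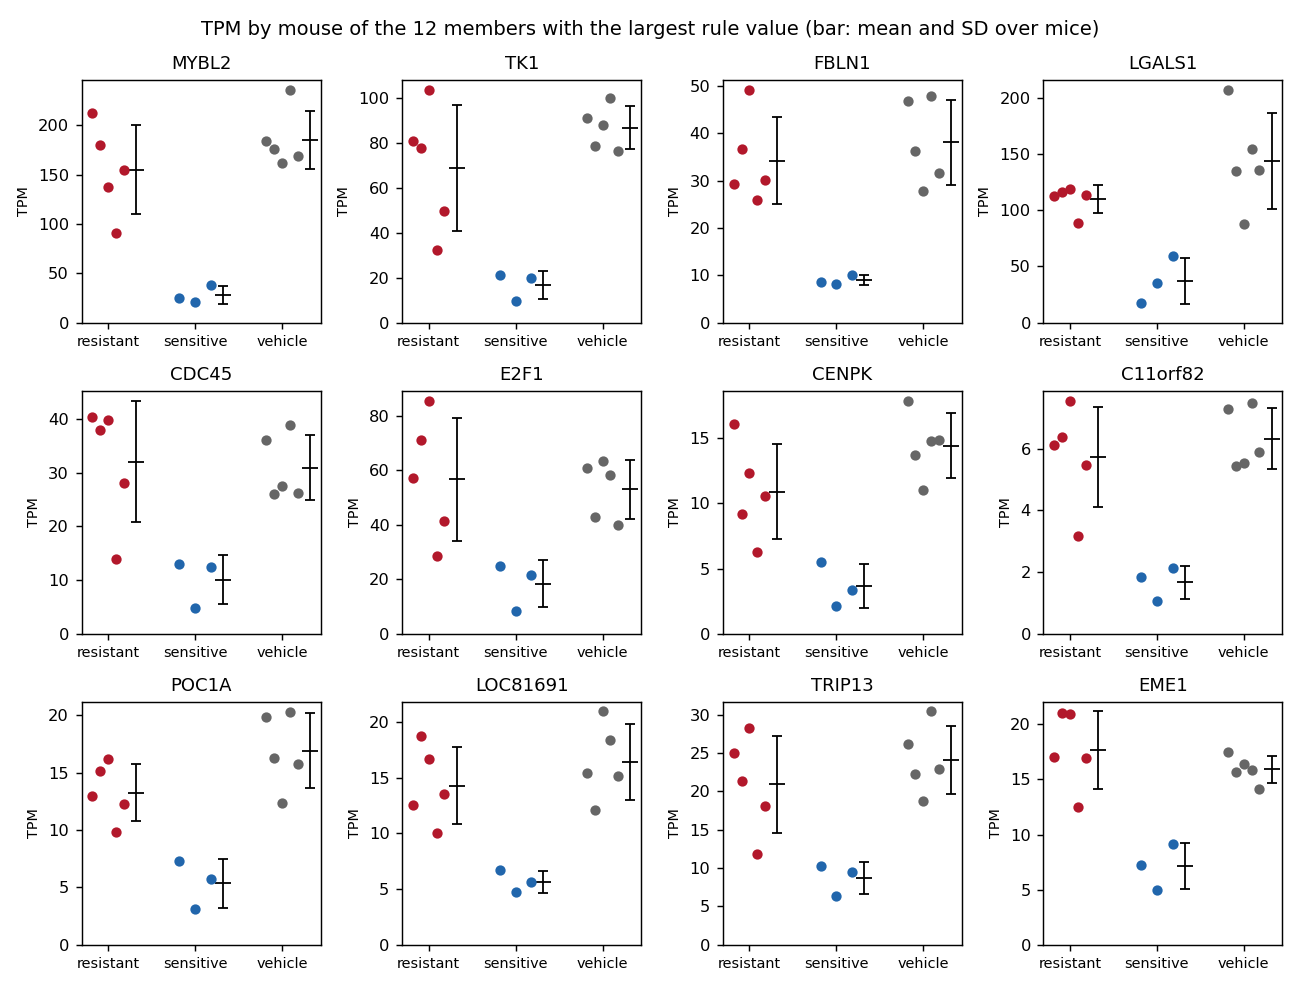
TPM per mouse (y axis, linear) for the 12 members with the largest rule value, with resistant, sensitive and vehicle mice along the x axis and bars at the mean ± SD. All sensitive points lie below all others, and resistant mouse 9-8 is often the lowest resistant point.

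The sensitive and resistant groups were not uniform across the members. Mouse 6-5 was the lowest sensitive mouse for 62 of the 80 (43.4% of all genes at 5 TPM or more), 6-4 for 15 and 6-6 for 3. Mouse 9-8 was the lowest resistant mouse for 56 of the 80 (27.4% of genes), and 9-7 the highest for 40 (29.6%). The median SD over members was 0.25 in resistant, 0.20 in sensitive and 0.19 in vehicle tumors on the log2 scale, against 0.14 in resistant, 0.12 in sensitive and 0.16 in vehicle tumors over all genes at 5 TPM or more. The SD was larger in resistant than in vehicle tumors for 56 of the 80 and for 38.8% of genes at 5 TPM or more.

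Mouse 9-8 had the lowest mean of the resistant mice in 8 of the 9 role groups, all but the chromatin group. The mean over the 11 replication genes, relative to their vehicle means, was -0.75 in 9-8 and -0.25 to 0.10 in the other resistant mice. It was -1.13, -1.68 and -1.16 in the 3 sensitive mice. MKI67, the proliferation marker, had 8.47, 7.68, 8.91, 2.36 and 3.79 TPM in resistant tumors, 1.12, 0.970 and 1.99 TPM in sensitive tumors and 58.2, 46.1, 36.2, 46.5 and 42.1 TPM in vehicle tumors; 9-8 was the lowest resistant mouse and close to sensitive mouse 6-6. In the other groups the mean in 9-8 was -0.67 (kinetochore), -0.48 (repair), -0.44 (centriole), -0.36 (matrix), -0.29 (other), -0.23 (chromatin), -0.21 (enzymes) and -0.06 (immune). It was the highest resistant mouse for 5 of the 80, namely LMNA, TNFRSF12A, PPT1, REEP4 and RPS27L.

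**Figure D3:**
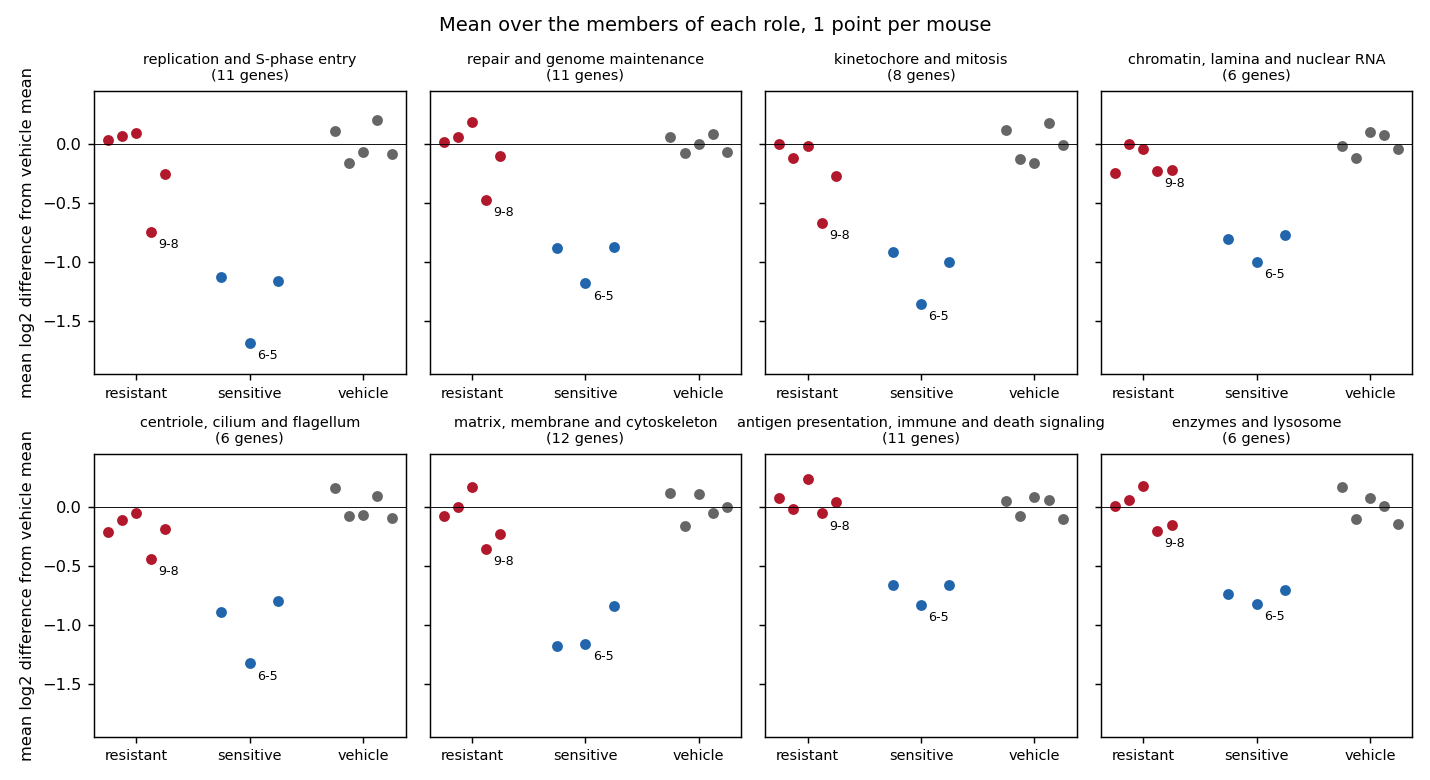
Mean over the members of each role of log2(TPM + 1) minus the vehicle mean (y axis), 1 point per mouse, for 8 role groups, with resistant, sensitive and vehicle mice along the x axis. Mouse 9-8 is labelled at -0.75 in the replication panel and mouse 6-5 at -1.68.

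The make-up of the 80 depended on that mouse. Without 9-8, 79 of the 80 still met the conditions (all but GINS4), but only 45 were among the 80 with the largest rule value, because 35 other genes came in above them. In 26 of these 35, mouse 9-8 was at or below the highest sensitive mouse, and 10 are on the replication list, 3 on the E2F list and 3 on the repair list. They include MCM2, MCM3, MCM4 and MCM5 of the replicative helicase, GINS2, POLA2, BRCA1, FANCI and FANCA. BRCA1, for example, had 5.10 TPM in 9-8, 9.15 TPM or more in the other resistant mice and at most 5.91 TPM in sensitive mice. By role, 7 of 11 replication, 7 of 11 repair, 6 of 8 kinetochore and 9 of 12 matrix and membrane members were kept, and 4 of 11 immune members. The genes named here were picked after their values were seen.

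**Figure D4:**
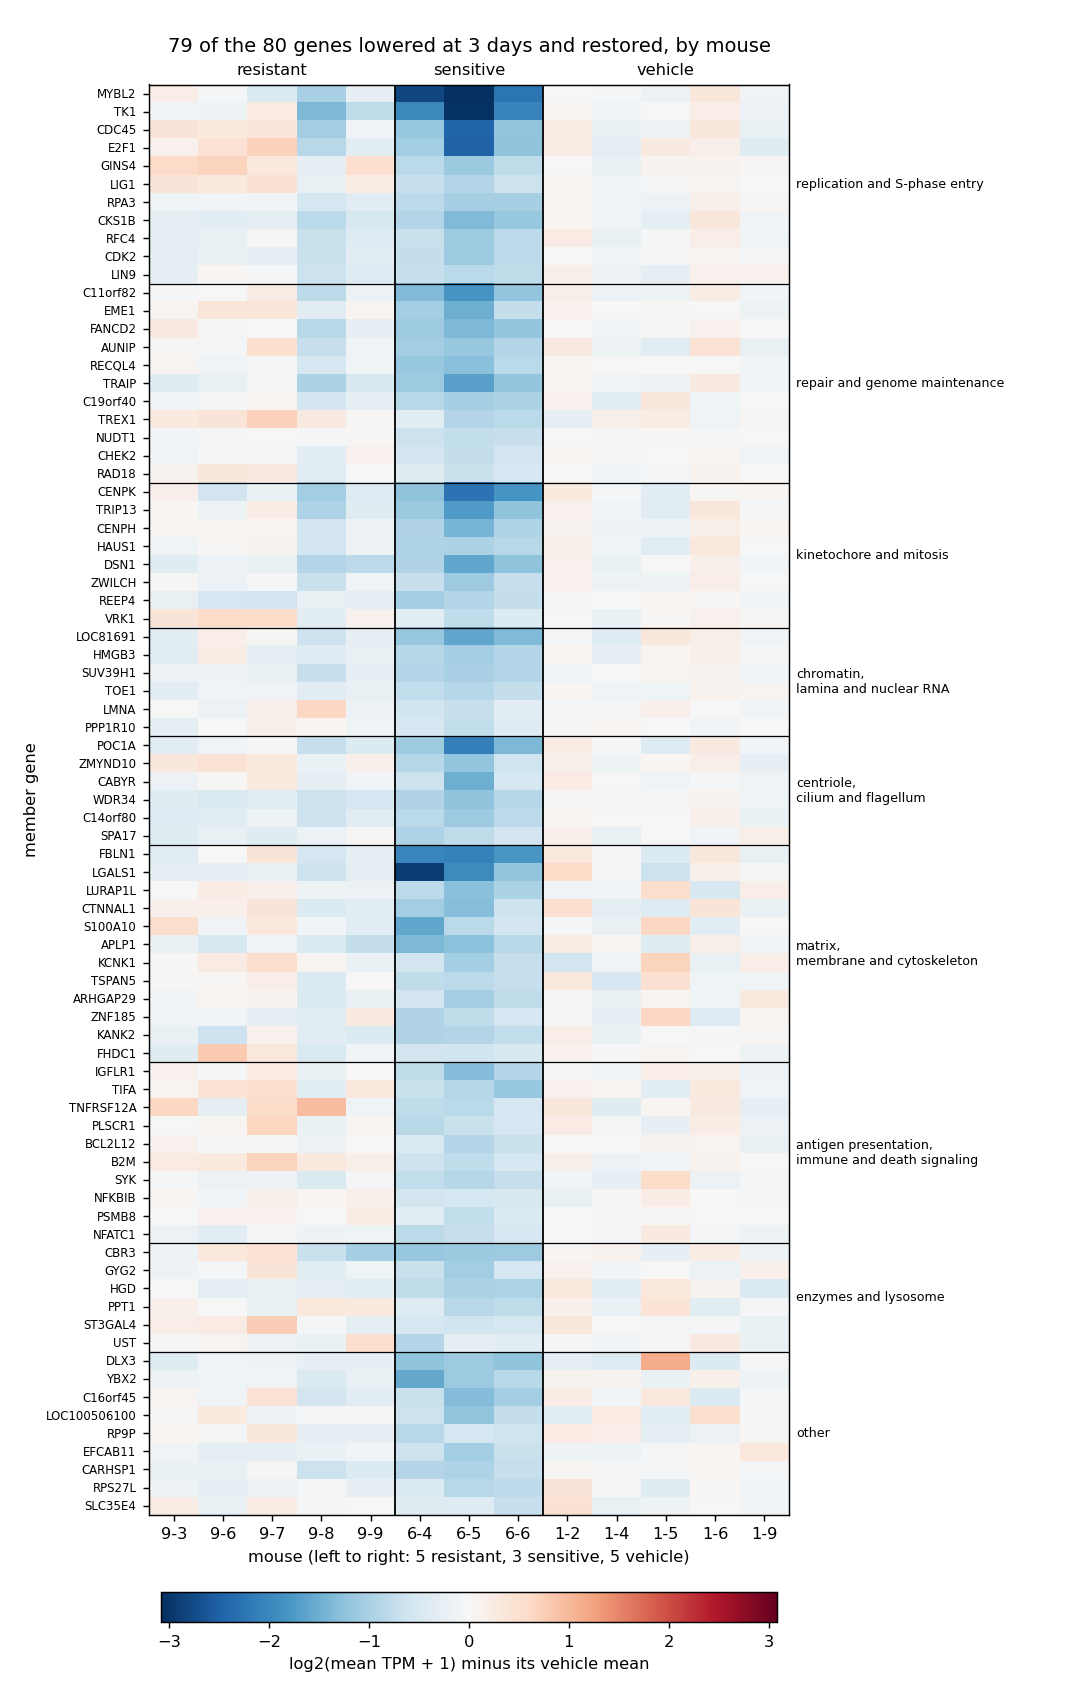
Log2(TPM + 1) minus the vehicle mean (color) for 79 of the 80 members (rows, by role) in 5 resistant, 3 sensitive and 5 vehicle mice (columns). The 3 sensitive columns are blue in every row, and mouse 9-8 was the lowest resistant mouse for 56 of the 80 members, among them 11 of 11 replication, 9 of 11 repair, 7 of 8 kinetochore, 5 of 6 centriole, 4 of 6 chromatin, 7 of 12 matrix, 7 of 11 immune, 2 of 6 enzyme and 4 of 9 other members.

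Many genes that work with the members were still lower in resistant than in vehicle tumors. Changes of these other genes are given relative to the median of all genes tested. That median was -0.05 for resistant versus sensitive, -0.07 for sensitive versus vehicle and -0.14 for resistant versus vehicle. Calls are by limma at a Benjamini-Hochberg adjusted p under 0.05. The list counts below stand beside these shares of all genes tested: 9.56% higher in resistant than in sensitive tumors, 12.6% lower in sensitive than in vehicle tumors and 32.5% lower in resistant than in vehicle tumors. Of 36 tested G2/M genes outside the 80, 34 rose in resistant against sensitive tumors, all 36 fell in sensitive against vehicle tumors, and all 36 were lower in resistant than in vehicle tumors (34 with either other scaling). Their median changes were 1.198 for resistant versus sensitive, -3.44 for sensitive versus vehicle and -2.01 for resistant versus vehicle. CKS1B was the only one of 37 G2/M genes among the 80. CENPA, the centromere histone on which CENPK and CENPH assemble, averaged 1.73 TPM in resistant, 0.443 TPM in sensitive and 20.1 TPM in vehicle tumors (resistant versus vehicle -2.82 ± 0.12, adjusted p = 6.85e-09). MKI67 averaged 6.24 TPM in resistant, 1.36 TPM in sensitive and 45.8 TPM in vehicle tumors (-2.66 ± 0.27, adjusted p = 6.04e-06).

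Of 22 E2F and DREAM targets of G1/S outside the 80, 10 rose in resistant against sensitive tumors, 22 fell in sensitive against vehicle tumors and 17 were lower in resistant than in vehicle tumors, with median changes of 0.76, -1.58 and -0.74 for these 3 comparisons. E2F1, MYBL2 and TK1 were the 3 of 25 listed genes among the 80. RRM2, a ribonucleotide reductase subunit, acts in nucleotide supply, as TK1 does. It averaged 18.4 TPM in resistant, 3.47 TPM in sensitive and 72.7 TPM in vehicle tumors (resistant versus vehicle -1.98 ± 0.37, adjusted p = 5.48e-04). TYMS, thymidylate synthase, averaged 52.8 TPM in resistant, 15.4 TPM in sensitive and 127 TPM in vehicle tumors (-1.17 ± 0.28, adjusted p = 0.00213). CCNE2, a cyclin that activates CDK2, averaged 3.12 TPM in resistant, 1.41 TPM in sensitive and 13.3 TPM in vehicle tumors (-1.75 ± 0.23, adjusted p = 3.95e-05). The rises rested on few sensitive mice: without mouse 6-5, 3 of the 22 were called higher in resistant than in sensitive tumors, and without mouse 9-8, 18 were, and with weights per mouse 16 were.

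Replication genes were divided. Outside the 80, 17 of 31 rose in resistant against sensitive tumors, 27 of 31 fell in sensitive against vehicle tumors, and 13 were lower in resistant than in vehicle tumors (9 and 10 with the other scalings), with median changes of 0.72, -0.99 and -0.23 for these 3 comparisons. Without mouse 6-5, 1 of the 31 was called higher in resistant than in sensitive tumors and 17 were called lower in sensitive than in vehicle tumors; without mouse 9-6, 11 were called higher, and with weights per mouse 26 were. The members CDC45, GINS4, RFC4, LIG1 and RPA3 are 5 of 36 listed genes. GINS1, in the same complex as GINS4, averaged 4.77 TPM in resistant, 2.50 TPM in sensitive and 12.2 TPM in vehicle tumors (resistant versus vehicle -1.08 ± 0.15, adjusted p = 3.86e-05). MCM10 averaged 1.62 TPM in resistant, 0.403 TPM in sensitive and 7.39 TPM in vehicle tumors (-1.60 ± 0.23, adjusted p = 6.54e-05). Others stood nearer vehicle. GINS2, also in the complex of GINS4, was at -0.04 for resistant minus vehicle with no shift removed. MCM2, MCM3, MCM4 and MCM5 were at -0.43, -0.04, -0.35 and -0.10. In repair, 14 of 25 rose and 1 fell in resistant against sensitive tumors, 22 fell in sensitive against vehicle tumors and 19 were lower in resistant than in vehicle tumors (14 and 16 with the other scalings); without mouse 6-5 the first count was 4, and the 1 fall was not called with either other scaling or without 6-5, 9-6 or 9-8. FANCD2 is the 1 member of this list of 26. FEN1 and CHEK1, a flap nuclease and a checkpoint kinase, averaged 21.1 TPM in resistant, 11.4 TPM in sensitive and 39.6 TPM in vehicle tumors and 7.42 TPM in resistant, 4.12 TPM in sensitive and 13.6 TPM in vehicle tumors.

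Chromatin and lamina genes showed little return. Of 26 outside the 80, 5 rose and 1 fell in resistant against sensitive tumors, 23 fell in sensitive against vehicle tumors and 23 were lower in resistant than in vehicle tumors (20 and 21 with the other scalings); quantile normalization gave 15 for the fall, leaving out single mice gave 2 to 7 for the rise, quantile normalization 3 and weights per mouse 9. LMNB1, the gene of lamin B1, averaged 19.7 TPM in resistant, 16.9 TPM in sensitive and 83.3 TPM in vehicle tumors (resistant versus vehicle -1.91 ± 0.15, adjusted p = 5.78e-07), where the member LMNA stood at 329.6 TPM in resistant, 206 TPM in sensitive and 302 TPM in vehicle tumors. HMGB2 averaged 25.7 TPM in resistant, 9.84 TPM in sensitive and 147 TPM in vehicle tumors (-2.40 ± 0.23, adjusted p = 3.98e-06), where the member HMGB3 stood at 41.5 TPM in resistant, 24.2 TPM in sensitive and 47.4 TPM in vehicle tumors. Whether a member differs from its partner was not tested, because the members were chosen on these contrasts.

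Outside B2M and PSMB8, few genes of the MHC class I list were called lower at 3 days. Of its 17 other tested genes, 2 rose and 1 fell in resistant against sensitive tumors and 2 fell in sensitive against vehicle tumors. The rise was called for 5 with median of ratios, 3 with quantile normalization, 5 with weights and 4 with the replicate block, and the fall for 1, 1, 5 and 4 with these settings; without mouse 6-5, 1 fell in sensitive against vehicle tumors and 0 in resistant against sensitive tumors. In resistant against vehicle tumors 2 were higher and 4 lower, and with the other scalings 7 and 5 were higher and 1 and 2 lower. PSMB9, like PSMB8 an immunoproteasome subunit, averaged 1.73 TPM in resistant, 1.27 TPM in sensitive and 3.50 TPM in vehicle tumors (resistant versus vehicle -0.59 ± 0.17, adjusted p = 0.00365). Its fall at 3 days was called with all 3 scalings (sensitive versus vehicle -0.91 ± 0.20, adjusted p = 0.0039 in the main fit). TAP1, a peptide transporter, averaged 18.6 TPM in resistant, 17.8 TPM in sensitive and 24.7 TPM in vehicle tumors (resistant versus vehicle -0.27 ± 0.12, adjusted p = 0.0122). It was also called lower at 3 days (sensitive versus vehicle -0.41 ± 0.13, adjusted p = 0.0275). Both of these TAP1 calls ended with both other scalings. Of 24 nucleotide synthesis genes outside the 80, 4 rose and 3 fell in resistant against sensitive tumors, 8 fell in sensitive against vehicle tumors and 11 were lower in resistant than in vehicle tumors; without mouse 6-5 the first count was 2, and with weights or the replicate block 7. The 3 falls were 0 with median of ratios, 1 with quantile normalization, 0 without mouse 6-5 and 1 without 9-6 or 9-8. The other 14 of the 21 lists held no member.

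**Figure D5:**
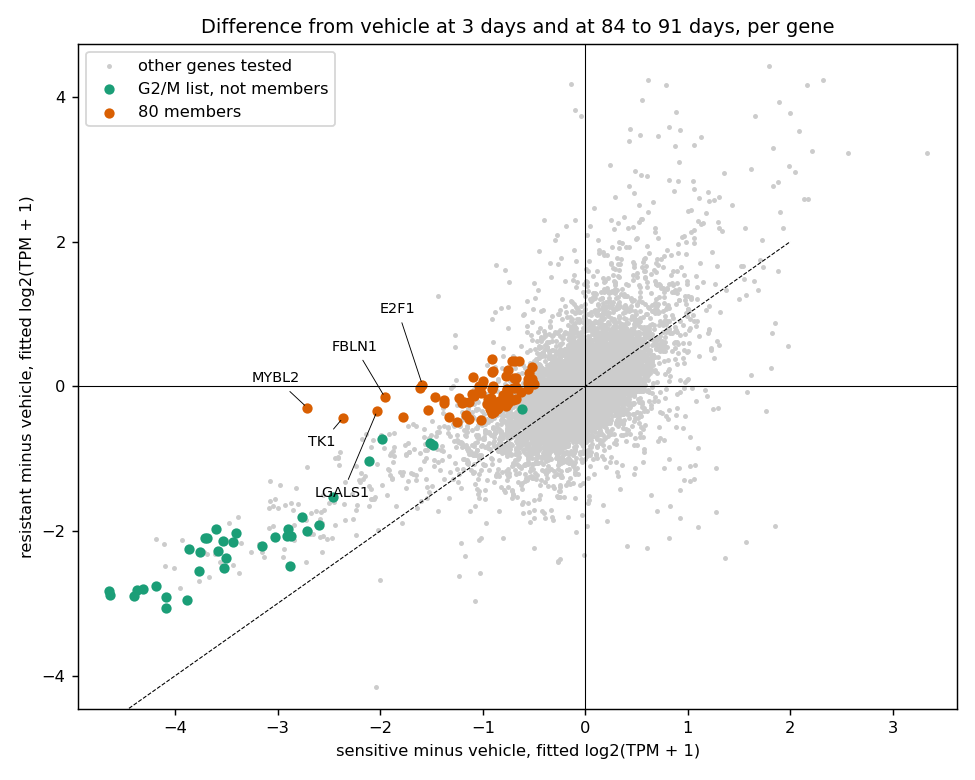
Fitted log2 difference of sensitive minus vehicle (x axis) and resistant minus vehicle (y axis) for each gene tested, with the 80 members and the 36 other G2/M genes colored and the dashed line marking equal differences. Members lie near 0 on the y axis by the rule, while the G2/M genes lie below it with a median of -2.14; both axes share the vehicle mice.

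The drug target itself did not follow the member pattern. CDK4 averaged 255 TPM in resistant, 264 TPM in sensitive and 289 TPM in vehicle tumors; its call as lower in resistant than in vehicle tumors (adjusted p = 0.0278) ended with both other scalings and without mouse 1-6 or 9-8. CDK6, its close relative, was at most 0.395 TPM in any mouse. CCND1, cyclin D1, averaged 727 TPM in resistant, 420.3 TPM in sensitive and 263 TPM in vehicle tumors (resistant versus sensitive 0.82 ± 0.14, adjusted p = 0.00291; sensitive versus vehicle 0.75 ± 0.14, adjusted p = 0.00621). RB1 averaged 22.9 TPM in resistant, 22.97 TPM in sensitive and 32.4 TPM in vehicle tumors and was lower in resistant than in vehicle tumors (-0.36 ± 0.08, adjusted p = 5.16e-04).

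The members were spread over the genome. Of the 80, 79 had a position, on 21 chromosomes, with 9 each on chromosomes 1 and 3, 7 on chromosome 19 and 5 on chromosome 22. Only 3 pairs lay within 500000 bases of each other: IGFLR1 and APLP1, 125446 bases apart on chromosome 19, EME1 and DLX3 on chromosome 17, and TRAIP and ZMYND10 on chromosome 3. Vehicle means ran between 5.13 and 355 TPM with a median of 19.8; 22 members were under 10 TPM and 8 over 100. When the 26 libraries were read singly instead of as mouse means, 48 of the 80 had every sensitive library below every other, and 32, such as CENPK, CDK2, CKS1B and LIN9, did not.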

How the data were processed

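RNA sequencing of 26 libraries from 13 tumors was analysed, 2 per mouse. The authors deposited 1 table of TPM per gene and library; per the submitters' processing notes, the tools were STAR, RSEM, HTSeq and FastQC and the builds GRCm38 and GRCh38, with no versions or roles. TPM holds no read counts, so depth is unknown and no counting interval is given. Nothing used here says at which step libraries A and B divide; they were averaged, and the mouse was the replicate. One entry named unknown was left out.

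Members and lists were chosen with earlier results of these data known. Genes were named by rule: any member, with a value for every mouse for the 12 members with the largest rule value and up to 4 per role by rule value, and up to 3 other genes per list by adjusted p, with CDK4, CDK6, CCND1, RB1 and MKI67, and the values per mouse of CDK2, CKS1B, NUDT1, LMNA, S100A10, B2M and PSMB8, added after their values were seen. Genes with a mean of at least 1 TPM in at least 3 mice (14079) entered 1 limma model with trend on mouse means of log2(TPM + 1) computed from the deposited TPM (limma 3.58.1, R 4.3.3), two-sided, called at a Benjamini-Hochberg adjusted p under 0.05. The pseudocount of 1 understates changes of low genes. The model was tested on simulated data. Alternatives were other scalings, filters, pseudocounts, weights, single libraries, 26 libraries with a replicate block, and leaving out each mouse. The letters A and B pair libraries of 1 mouse, and their consensus correlation was 0.64. Sequences are from RefSeq, which matched 65 of the 80 members. The single values of 1 member are not reported here; it is in the counts and medians over the 80.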

Additional observations from a re-analysis of the deposited data

Results flagged for a closer look

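In 6 of 158 groups of 5 mice (79 members, resistant and vehicle), 1 mouse stood apart from the rest of its group by Dixon's ratio of gap to range; chance alone gives about 1 in 20. In resistant tumors the lowest was mouse 9-8 for LGALS1 (88.6 TPM, with 113 to 119 TPM in the other 4) and SUV39H1 (10.78 TPM, with 14.7 to 16.3). The highest was mouse 9-7 for B2M (502 TPM, next 384) and mouse 9-6 for HMGB3 (55.7 TPM, next 40.4). In vehicle tumors mouse 1-5 was the highest for DLX3 (13.45 TPM, next 5.43) and SYK (14.51 TPM, next 9.13).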

How the results depend on the processing

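The choice of the 80 was sensitive to single mice. Leaving out each mouse kept 45 (without 9-8) to 77 of the 80, and 46 were kept without 6-5 and 9-8 together, an alternative chosen after seeing the data. The genes that met the conditions numbered 400 to 888 over these settings, against 389 (888 without 6-4). Scaling by median of ratios, quantile normalization, library A alone and library B alone kept 61, 60, 59 and 61.

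Genes called higher and lower in resistant against sensitive tumors numbered 1346 and 1631. Leaving out 1 mouse gave 673 (without 6-5) to 1589 higher and 695 (without 6-4) to 1977 lower. Weights per mouse gave 2036 higher, and library A alone 1081 lower. In sensitive against vehicle tumors 445 were higher and 1767 lower. Leaving out 1 mouse gave 100 (without 6-5) to 542 and 801 (without 6-5) to 1910. Median of ratios gave 771 and 1066, quantile normalization 938 and 989, and weights 1023 and 3390. Fitting only the 2 groups compared gave 239 higher, and library A alone 237. In resistant against vehicle tumors 1624 were higher and 4570 lower. Median of ratios gave 2540 and 2439, and quantile normalization 2330 and 2775, so the split of directions rests on the scaling.

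Over 26 libraries with the library letter as replicate block and the mouse as random effect, the higher and lower counts were 1559 and 1909 (resistant against sensitive), 607 and 2147 (sensitive against vehicle) and 1614 and 4696 (resistant against vehicle). With this replicate block, 20 in place of 13 replication genes outside the 80 were lower in resistant than in vehicle tumors, and 7 in place of 4 nucleotide genes were higher in resistant than in sensitive tumors.

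For motifs, settings chosen after seeing the data moved shares. E2F letters without the first T were in 32.3% of member promoters, 43.9% of genes that fell and came within 0.5 of vehicle, 36.5% of those that stayed lower, 27.6% of G2/M genes and 21.9% of expressed genes. CHR letters over the shorter window were in 35.5% of genes that stayed lower and 4.00% of expressed genes.

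Of 9363 recomputed values of single genes and lists, 9121 kept their side of the threshold or stayed within the spread, and 242 did not. The cause of these 242 moves was not tested. Values labelled as reversed numbered 0. Member falls at 3 days and later rises were recomputed 6270 times. The rule placed every sensitive mouse below all others, so leaving out a mouse keeps the direction of these member values. Nothing is therefore read from the 0 reversed.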
